A study of Mus musculus with 96 samples.

Results

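The libraries described here are those of the series whose RNA looks like that of a 2-cell embryo, and they are compared between 2 blocks of columns of the deposited count table. A library was a member if it held at least 100000 gene counts, at least 4000 genes with a count, under 100 counts per 1000000 (CPM) of Mos and at least 1 count of Zfp352. Mos is an oocyte kinase that holds the egg in meiosis, and Zfp352 is transcribed at the 2-cell stage. The members were thus chosen by their depth, genes detected, Mos and Zfp352 levels, and the rule found 39 of 96 libraries. All 39 lay in columns 53 to 96, counted from 1 in file order: 20 in columns 53 to 74 (the earlier block) and 19 in columns 75 to 96 (the later block). A block is a position in the table. It was given no genotype and no stage, and nothing below assigns one.

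The series measured RNA in individual ovulated (MII) eggs and in individual cells of 2-cell embryos, in a mouse line with the P620A variant of the Padi6 protein. The labels give 22 libraries each to oocytes of Padi6+/+ females, oocytes of Padi6P620A/P620A females, blastomeres labelled Padi6+/+ and blastomeres labelled Padi6MatP620A/+, whose variant allele is the maternal one. The remaining 8 are negative controls. Females of 4 to 8 weeks received gonadotropins, the second 52 hours after the first, and eggs were taken 13 hours later. Embryos came from in vitro fertilisation with sperm of males of 8 to 12 weeks, blastomeres were separated, and polyadenylated RNA was amplified with PCR. No label names an animal, so each block counts as 1 sample, no test was made and no p-value is given.

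The header labels do not follow the RNA content. In the earlier block 11 members were labelled mutant 2-cell, 7 mutant oocyte and 2 wild-type oocyte. In the later block 12 were labelled mutant oocyte, 5 wild-type oocyte and 2 negative control, and no member of either block was labelled wild-type 2-cell. The headers also come in runs of 8 columns that carry 8 consecutive label numbers. Only the run of columns 73 to 80 spans the boundary, with 2 members in the earlier block and 5 in the later, all labelled wild-type oocyte. Block, run and header label therefore cannot be told apart over most of the table. The comparison answers whether the RNA of 2-cell-like libraries differs between the blocks. The study's title names a failure of zygotic genome activation, but with no genotype for either block the values cannot be set against it.

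Mouse embryos start their own transcription in earnest at the 2-cell stage. A short burst of genes, many in tandem families (Zscan4, Eif1ad, Tdpoz, Usp17l) and driven in part by endogenous retroviral promoters, comes with it, and genes for ribosomes, nucleoli and splicing follow. Over the same hours messages stored in the egg are removed. Padi6 encodes a component of the cytoplasmic lattices of the egg, which store maternal proteins, and females without it have embryos that stop at the 2-cell stage.

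Promoters are shown for genes lower and higher in the later block, so that their upstream sequences can be read side by side. The 250 bases before the annotated start were taken from RefSeq for 3 burst genes and for Pcid2, an mRNA export factor that was higher in the later block. The first is Zfp352, at chr4:90218570-90218819 on the plus strand, and the second Zscan4d, at chr7:11166149-11166398 on the minus strand. AF067061 lies at chr13:120262845-120263094 on the plus strand and Pcid2 at chr8:13105344-13105593 on the minus strand, all in GRCm38.p6. Each is written 5′ to 3′ on the gene's strand, and capitals mark matches, on either strand, to the motifs named after them.
Zfp352: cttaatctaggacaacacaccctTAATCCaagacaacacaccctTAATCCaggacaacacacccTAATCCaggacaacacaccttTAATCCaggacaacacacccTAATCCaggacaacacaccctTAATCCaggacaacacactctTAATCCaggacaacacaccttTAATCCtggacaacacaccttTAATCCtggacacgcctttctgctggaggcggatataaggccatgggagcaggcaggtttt
Zscan4d: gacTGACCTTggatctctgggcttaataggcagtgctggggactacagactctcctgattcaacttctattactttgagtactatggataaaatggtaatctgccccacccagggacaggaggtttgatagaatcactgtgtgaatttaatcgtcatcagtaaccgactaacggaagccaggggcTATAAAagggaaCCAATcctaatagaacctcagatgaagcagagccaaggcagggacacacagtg
AF067061: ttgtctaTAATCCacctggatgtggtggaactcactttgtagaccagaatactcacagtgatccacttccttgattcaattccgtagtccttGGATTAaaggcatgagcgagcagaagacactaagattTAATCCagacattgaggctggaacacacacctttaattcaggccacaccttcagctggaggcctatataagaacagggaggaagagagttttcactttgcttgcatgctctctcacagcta
Pcid2: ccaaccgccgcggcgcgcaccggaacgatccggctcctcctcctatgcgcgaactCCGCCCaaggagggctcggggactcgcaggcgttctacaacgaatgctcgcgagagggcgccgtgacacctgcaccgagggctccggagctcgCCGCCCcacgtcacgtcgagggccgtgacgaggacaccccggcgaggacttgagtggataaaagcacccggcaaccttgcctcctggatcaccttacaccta

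The motifs searched were TATAAA (the TATA box), CCAAT (the CCAAT box), GGGCGG (the GC box), GGATTA (a core site of Obox and Otx homeobox factors), AAGGTCA (a core site of Nr5a receptors) and the Dux motif, on both strands. The Zfp352 window held 9 matches to GGATTA, read as TAATCC on the plus strand in a repeated unit, and the AF067061 window held 3. Zscan4d had 3 matches of 3 kinds, a TATA box, a CCAAT box and an Nr5a core site, and Pcid2 had 2 GC boxes. GGATTA was found in 27.3% of the 22 windows of 21 burst genes (of 43 compared) that had one, against 6.25% of all 32851 windows. TATAAA was found in 36.4% of the burst windows against 12.4% of all, and GGGCGG in 13.6% against 32.7%. In the 8406 windows of the genes compared the shares were 5.14% for GGATTA, 6.67% for TATAAA and 56.6% for GGGCGG. The median G and C content was 44.8% in the burst windows and 59.6% in the windows of all genes compared. It was also 59.6% in windows of genes at least 2-fold higher in the later block, and 57.6% in those at least 2-fold lower. The Dux motif was in no window of the genes compared. These matches describe the letters only.

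Counts per library ranged from 503644 to 2509532 in the earlier block (median 1333150) and from 1061451 to 3185910 in the later (median 1768061). Genes with a count numbered 6063 to 12211 (median 10308) in the earlier block and 4328 to 13177 (median 10559) in the later. After thinning to 100000 counts the medians were 7528 and 7619 genes. The mitochondrially encoded share of counts had medians of 2.09% and 2.21%. Markers of cumulus and granulosa cells took at most 0.0256% of a member's counts in the earlier block and 0.0142% in the later, and 7 of 29 were at 0 in every member, among them Foxl2, Nr5a1 and Inhbb. Of 16 sperm markers 5 were at 0 in every member (Prm3, Tnp1, Tnp2, Smcp and Spata18), and of 18 blood markers 6, including Tyrobp and Hbb-bt. Of the 3 marker lists 2, 1 and 1 genes were compared, and none passed 2-fold by pooled level. Cyp19a1 and Spp1, of the cumulus list, reached 155 and 107 CPM. Their library medians were 0 CPM in the earlier block, and 12.2 and 22.3 CPM in the later. Odf2, of the sperm list, had a count in 19 earlier and 19 later libraries. C1qb, of the blood list, had a count in 10 earlier and 9 later libraries.

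The values that chose the members are given as a description. Zfp352 ranged from 20.7 to 610 CPM in the earlier block (median 286) and from 0.566 to 815 CPM in the later (median 75.8), and the pooled levels were 257 and 131 CPM. Mos was at 0 in most members, with counts in 5 earlier and 7 later libraries, and reached at most 63.3 and 17.9 CPM. In the 39 oocyte-like libraries, which had at least 100 CPM of Mos and no Zfp352 count, its median was 1786 CPM. Library 29 was just inside the rule with 1 Zfp352 count, library 73 with 63.3 CPM of Mos and library 41 with 4328 genes. Just outside was library 1, with 3775 genes and 375 CPM of Zfp352. Among columns 53 to 96, 5 libraries in all were not members: libraries 82 (2486 genes), 35 (360), 1, 44 (23) and 30 (3042).

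Other 2-cell markers were present in nearly all members. Zscan4d, which encodes a telomere-associated zinc finger protein, had a count in 20 of 20 earlier and 19 of 19 later libraries. AF067061 had a count in 20 and 17 libraries, and no count in the 39 oocyte-like libraries, which allows up to 0.0268 CPM. The egg messages Gdf9 and H1f8, a growth factor and the oocyte linker histone, were still detected in every member. Gdf9 was at 631 CPM in the earlier and 625 CPM in the later block, and at 7381 CPM in the oocyte-like libraries. The members labelled negative control had the lowest shares of burst genes without Zfp352, both inside the oocyte-like range. These genes took 0.0374% of the counts of library 47 (95% exact binomial interval 0.0348% to 0.04%) and 0.04% of those of library 48 (0.0367% to 0.0435%). Library 29, labelled mutant oocyte, was near them at 0.06%.

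Padi6, the gene of the variant, had close medians in the blocks as a whole. Its CPM ran from 56.7 to 500 in the earlier block (median 202) and from 102 to 497 in the later (median 194), so the blocks overlapped throughout. The pooled ratio, later over earlier, was 1.11 (95% exact conditional binomial interval 1.07 to 1.14). The 2 earlier members of columns 73 to 80 had a median of 98.2 CPM and the 5 later ones 174 CPM, a log2 ratio of 0.93. Oocyte-like libraries had 4525 CPM. Such intervals cover counting error of the pooled counts only and leave out the spread between libraries. Amplified reads were not collapsed to molecules, so even the counting error may be larger than they show.

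Over all genes the later block had more genes lower than higher, and no gene separated the blocks. A gene was compared if its pooled level was at least 10 CPM in 1 block and at least 50% of that block's libraries had a count, which left 8576 genes. In the later block 589 (6.87%) of them were higher by 2-fold or more and 907 (10.6%) lower, and for 0 (0%) did the libraries of the blocks not overlap. The median log2 ratio was -0.09. For 506 of the 589 and 790 of the 907 the median library, after adding 1 CPM, also moved that way by 1.5-fold or more. Of 2121 genes that reached 100 CPM in 1 block, 67 were higher (3.16%) and 74 lower (3.49%). Of the genes apart by 2-fold, 39.4% were higher in the later block, but 49.6% with DESeq2 size factors, which placed the median of all genes at 0.005. Among the libraries of columns 73 to 80 alone, 428 of the 577 higher genes with more than 3 counts there and 487 of 899 such lower genes kept their direction.

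The burst genes were lower in the later block, and this held for most of the list together. Of 48 list genes found, 43 were compared, of which 16 were at least 2-fold lower, 0 higher and 41 below 0. All genes had 10.6% lower and 6.87% higher. The median log2 ratio was -0.83 against -0.09 for all genes. Without Zfp352, which the rule used, the median over 42 genes was -0.81. The list shares its members' families, so its genes are not independent. The share of counts taken by the list without Zfp352 ran from 0.118% to 1.14% in the earlier block (median 0.492%) and from 0.0374% to 0.774% in the later (median 0.263%). Only 3 of 19 later libraries were above the earlier median, and 12 of 20 earlier libraries were above the later median, so the blocks overlapped widely. In the oocyte-like libraries the median share was 0.0262%.

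**Figure D1:**
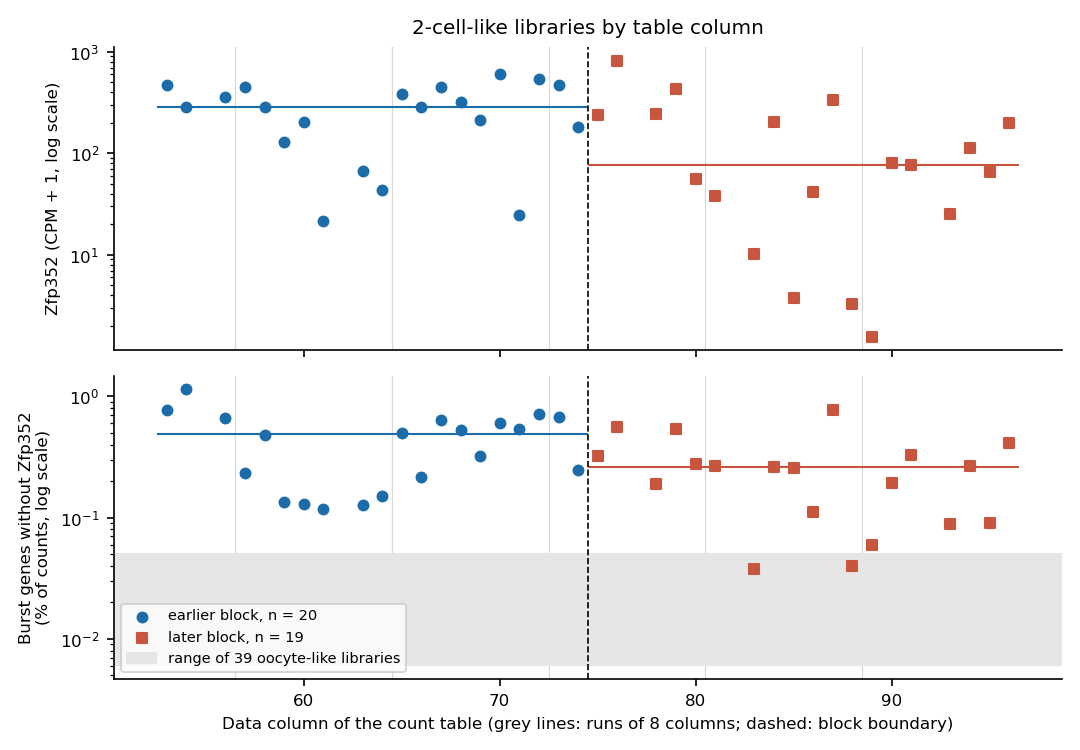
Zfp352 (upper, CPM + 1 on a log axis) and the share of counts of the burst genes without Zfp352 (lower, percent on a log axis) in each member, by table column, with block medians as lines. Blue circles are the 20 earlier and red squares the 19 later libraries, and the grey band is the range of 39 oocyte-like libraries: 5 of the 7 earlier libraries of columns 57 to 64 have burst shares of 0.118% to 0.150%, below every other earlier library.

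AF067061, a gene of the burst with no well-known function, ran from 2.04 to 1251 CPM in the earlier block (median 162). It ran from 0 to 484 CPM in the later block (median 71.3). High libraries occurred in both blocks, and 3 of 19 later libraries exceeded the earlier median. The pooled ratio was 2.94-fold lower (2.82 to 3.06). Its log2 ratio was +0.93 among libraries labelled mutant oocyte and +0.32 within columns 73 to 80.

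Zscan4d ran from 10.4 to 988 CPM in the earlier and from 0.548 to 387 CPM in the later block, with medians of 244 and 113. The blocks overlapped, with 14 of 20 earlier libraries above the later median, and the pooled level was 2.15-fold lower (2.07 to 2.23). It was 1.86-fold lower without library 83 and 1.97-fold lower without library 43. Among libraries labelled mutant oocyte its log2 ratio was +0.39. In the Zscan4 family 4 of 5 genes were at least 2-fold lower, in the Eif1ad family 5 of 16 and in the Tdpoz family 3 of 3 compared. In the Usp17l family it was 1 of 5, and of all genes compared 10.6% were lower. These near-identical copies share reads, so the value of a single copy is uncertain, and the summed levels are safer. The Zscan4 sum had medians of 358 and 169 CPM, the Eif1ad sum 1467 and 684 CPM, the Tdpoz sum 211 and 61.1 CPM and the Usp17l sum 285 and 220 CPM.

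The largest single difference in the list was B020031M17Rik, at 4.1-fold lower (3.79 to 4.44), with 1 of 19 later libraries above the earlier median, but its log2 ratio was +1.43 within columns 73 to 80. Zscan4b was 2.63-fold and Eif1ad18 2.57-fold lower. Tdpoz4, a BTB-domain gene, was 2.15-fold lower (2.02 to 2.28), and 1.91 to 1.99-fold lower with any 1 of libraries 36, 43, 88, 79 and 31 left out. The 2 list genes above 0 were Tmem92, with pooled levels of 132 and 143 CPM, and Ubtfl1, a relative of the nucleolar factor Ubtf, with 38.4 and 38.9 CPM. Tmem92 had a count in 19 of 20 earlier and 18 of 19 later libraries, as did Ubtfl1, and the blocks overlapped. Ubtfl1 was named after its values were seen.

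The difference in the burst genes did not follow the block alone. By run, the median burst share was 0.767% in columns 49 to 56 (3 members), 0.135% in columns 57 to 64 (7), 0.533% in columns 65 to 72 (8) and 0.462% for the 2 earlier members of columns 73 to 80. It was 0.32% for the 5 later members of that run, 0.259% in columns 81 to 88 (7) and 0.194% in columns 89 to 96 (7). The lowest median was thus inside the earlier block. Members labelled mutant oocyte had a median of 0.135% in the earlier block (7 libraries, all of columns 57 to 64) and 0.261% in the later (12). Members labelled mutant 2-cell had 0.606% (11 libraries, all earlier), and those labelled wild-type oocyte 0.462% (2 earlier) and 0.32% (5 later). Among libraries labelled mutant oocyte only, 1 burst gene of 41 was at least 2-fold lower and 9 were higher, with a list median of +0.35. Of all 8605 genes compared among those libraries, 1475 were higher. Within columns 73 to 80 the list median was -0.06, with 6 genes lower and 4 higher of 43. Both are smaller shares than for all genes there, of which 1570 of 8659 were lower and 1963 higher. Without columns 57 to 64 the list median was -1.30 with 29 lower. Without the 2 libraries labelled negative control 10 were lower. What sets the runs apart was not tested.

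**Figure D2:**
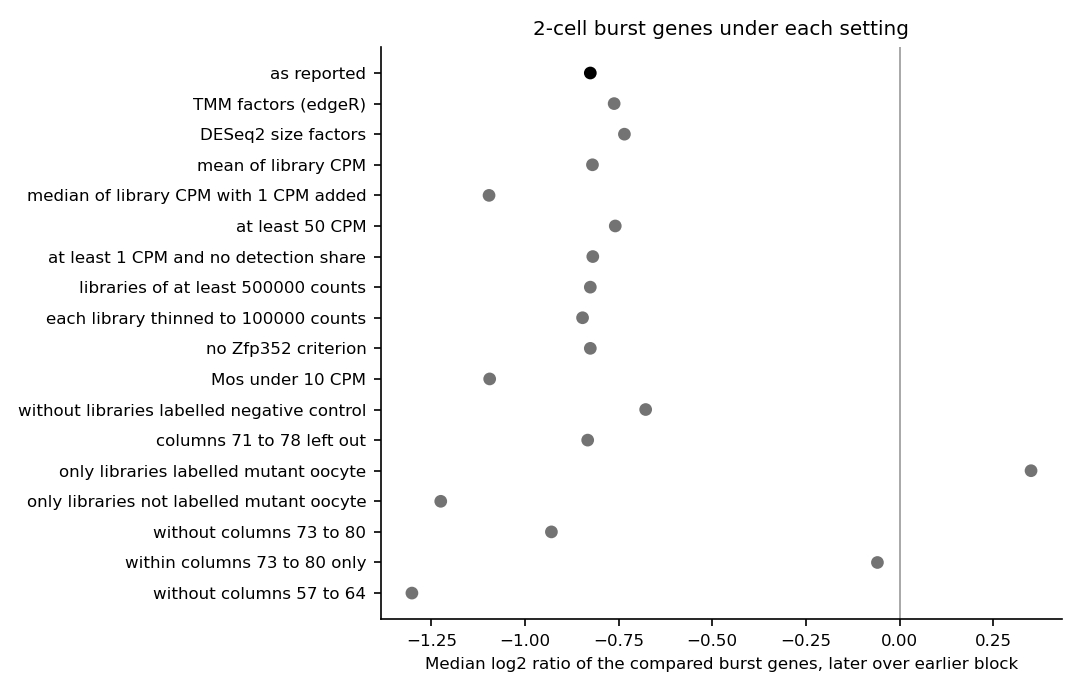
Median log2 ratio, later over earlier block, of the compared burst genes (x axis) under each setting (y axis), with the black point as reported. The median of -0.83 became +0.35 among libraries labelled mutant oocyte and -0.06 within columns 73 to 80, and stayed below 0 under the other settings drawn.

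A wider group of genes higher in 2-cell-like than in oocyte-like libraries showed a smaller shift the same way. Chosen after values were seen, 825 compared genes were at least 4-fold higher in the mean of the blocks than in the oocyte-like libraries. Of these 222 (26.9%) were at least 2-fold lower and 51 (6.18%) at least 2-fold higher in the later block, with a median log2 ratio of -0.44. These genes took a median of 8.62% of counts in the earlier block and 7.71% in the later, against 1.12% in the oocyte-like libraries. The gap to the oocyte-like libraries was set by the choice of genes. A gene could also enter through its level in 1 block alone. Extl1 did so, at 44.4 CPM in the earlier and 0.307 CPM in the later block, against 0.786 CPM in the oocyte-like libraries. The shares past 2-fold in this group are therefore partly set by the choice as well. The group also takes in burst genes such as Zscan4d and AF067061. Of 1258 genes at least 4-fold lower than in the oocyte-like libraries, and at 10 CPM or more there, only 440 met the rule for comparison. Among these 440 genes 74 (16.8%) were lower and 32 (7.27%) higher, with a median of -0.26. For 4903 genes within 2-fold the median was -0.05. Both medians were above 0 within columns 73 to 80, at 0.24 and 0.17, and the first was 0.28 among libraries labelled mutant oocyte.

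Among early embryo transcription factors 5 of 21 compared genes were lower and 1 higher, with a median of -0.28. The shares of all genes were 10.6% lower and 6.87% higher. Gabpa, an ETS factor that drives nuclear genes of mitochondria, ran from 0 to 532 CPM in the earlier block (median 64.2) and from 0 to 187 CPM in the later (median 3.39). Libraries without a count occurred in both blocks, 2 of 19 later libraries exceeded the earlier median, and the pooled level was 3.08-fold lower (2.86 to 3.31). Zfp42 (Rex1), a pluripotency-associated zinc finger factor, was 3.58-fold lower, and 6.02-fold lower without library 8. Obox3, a homeobox factor of the embryo, was 2.27-fold lower at 12 and 5.28 CPM. The list median was +0.68 among libraries labelled mutant oocyte and +0.10 within columns 73 to 80. Klf5, a Krüppel-like factor of the early embryo, was at 15.4 and 6.84 CPM.

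Most ribosomal protein genes had ratios below 0, though few passed 2-fold. Of 69 cytosolic ribosomal protein genes compared 7 were at least 2-fold lower, 0 higher and 59 below 0, with a median log2 ratio of -0.47. The 7 genes are a share near the 10.6% of all genes. Rpl41, a ribosomal protein outside that list and named after its values were seen, ran from 8.99 to 669 CPM in the earlier block (median 356) and from 4.65 to 339 CPM in the later (median 65). None of the 19 later libraries exceeded the earlier median, while 15 of 20 earlier libraries exceeded the later median, and the pooled level was 2.74-fold lower (2.63 to 2.85). By run its median was 35.6 CPM in columns 57 to 64, 32.6 CPM in columns 81 to 88 and 41.9 CPM in columns 89 to 96. In the other runs it lay between 261 and 512 CPM, so the low runs were those whose members were labelled mutant oocyte or negative control. Rpl23 was 3.19-fold lower (2.85 to 3.57). The ribosomal list median was +0.14 among libraries labelled mutant oocyte and +0.17 within columns 73 to 80. Processed pseudogenes of these genes may share their reads.

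Of 55 nuclear genes of oxidative phosphorylation 15 were lower and 6 higher (median -0.60), where of all genes 10.6% were lower and 6.87% higher. Of 12 mitochondrially encoded genes 0 passed 2-fold either way (median -0.18). Ndufv1 and Ndufs8, subunits of complex I, had pooled levels of 37.8 and 10.2 CPM and of 29 and 8.18 CPM, earlier then later. Uqcrc1, a core subunit of complex III, went the other way at 3.65 and 24.7 CPM. Chchd2, a small mitochondrial protein outside that list, was 2.58-fold lower (2.49 to 2.68), with medians of 226 and 134 CPM. Its libraries overlapped, with 1 of 19 later libraries above the earlier median.

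In the nucleolar and ribosome biogenesis list 8 of 44 genes were lower and 2 higher (median -0.22), and in the spliceosome list 4 of 42 were lower and 2 higher (median -0.27), the latter list with shares no larger than the 10.6% lower and 6.87% higher of all genes. Nop58, a core protein of box C/D ribonucleoproteins, was 2.53-fold lower (2.36 to 2.72). Npm1, the major nucleolar chaperone, ran from 177 to 1092 CPM in the earlier block (median 453) and from 136 to 451 CPM in the later (median 265). No later library exceeded the earlier median, and the pooled level was 1.9-fold lower (1.85 to 1.95), under the 2-fold used for a call. Srsf1, a splicing factor, was 2.81-fold lower (2.59 to 3.06), with 2 of 19 later libraries above the earlier median. Nop14, another nucleolar factor, was higher, at 9.63 and 40.4 CPM. Among 28 genes of late 2-cell housekeeping activation 5 were lower and 2 higher (median -0.34). The nucleolar median was 0.02 when every library was thinned to 100000 counts and +0.32 among libraries labelled mutant oocyte, where the spliceosome median was +0.08.

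**Figure D3:**
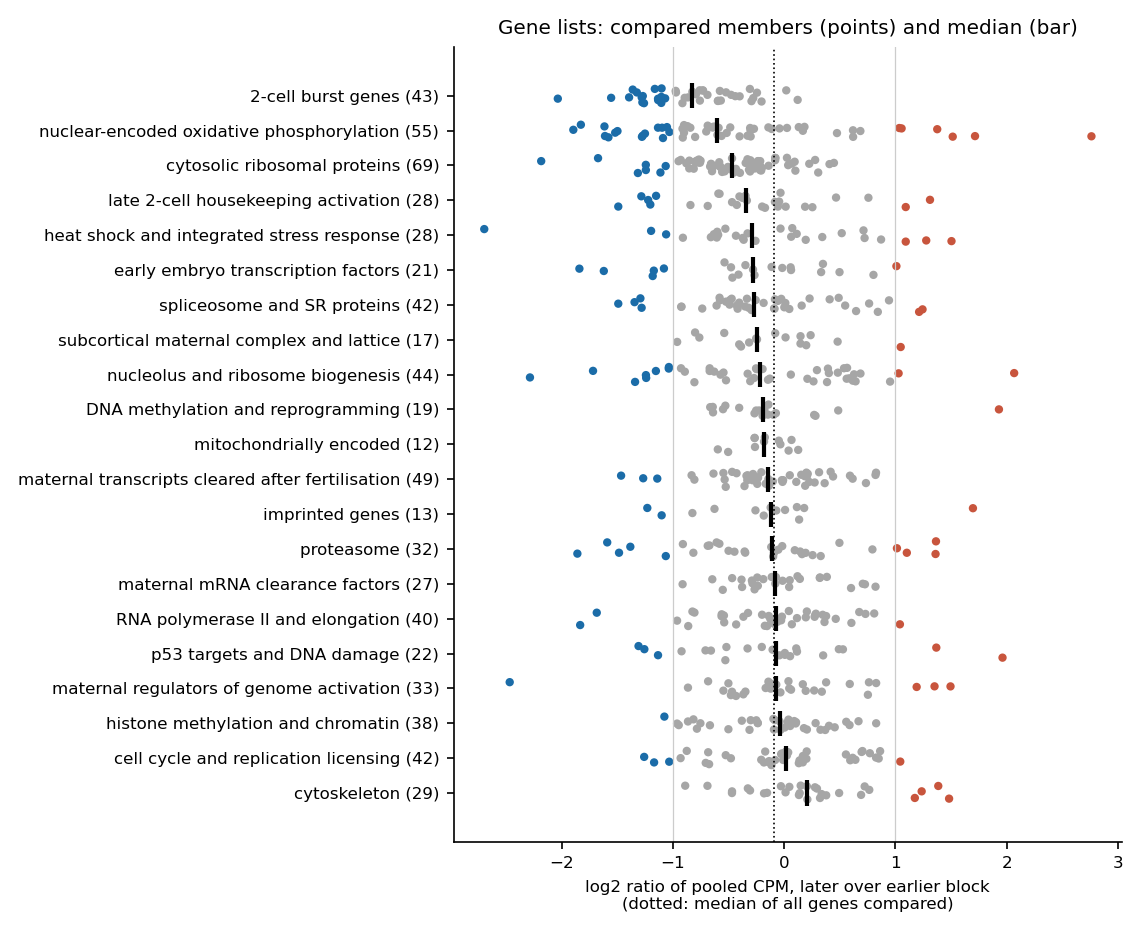
Log2 ratio of pooled CPM, later over earlier block (x axis), of each compared member (points) of the lists with at least 10 compared genes (y axis, number compared in brackets), with the list median as a bar. Blue points are at least 2-fold lower and red points at least 2-fold higher; burst genes have the lowest median (-0.83) and the cytoskeleton the highest (0.20).

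In a set of well-detected genes few or no later libraries exceeded the earlier median, and they were picked for that after their values were seen. Within columns 73 to 80 the differences were smaller, with log2 ratios of -0.28 for Psmd1, -0.41 for Eloc, -0.11 for Dynll1, -0.40 for H3f3a, -0.35 for Ubb and -0.10 for Gpx1, and no 2-fold difference remained. Psmd1, a subunit of the proteasome's regulatory particle, ran from 14.2 to 284 CPM in the earlier block (median 129) and from 0 to 116 CPM in the later (median 56.6). No later library exceeded the earlier median and 19 of 20 earlier libraries exceeded the later one. Its pooled level was 2.61-fold lower (2.47 to 2.76). The proteasome list as a whole had 5 of 32 genes lower and 4 higher (median -0.11), against 10.6% lower and 6.87% higher of all genes.

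Eloc, the elongin C adaptor of ubiquitin ligases and of transcription elongation, ran from 96.4 to 649 CPM in the earlier block (median 271) and from 53.2 to 265 CPM in the later (median 145). No later library exceeded the earlier median, and the pooled level was 2.2-fold lower (2.12 to 2.27). Dynll1, a dynein light chain, had medians of 379 and 147 CPM and was 2.34-fold lower (2.27 to 2.42). H3f3a, which encodes histone H3.3, had medians of 318 and 144 CPM and was 2.11-fold lower, but 1.98-fold lower without library 78 and 1.98-fold lower without library 80. Ubb, a polyubiquitin gene, had medians of 841 and 452 CPM and was 1.56-fold lower (1.53 to 1.6). In each of these 4 genes none of the 19 later libraries exceeded the earlier median, although the ranges overlapped. Gpx1, a glutathione peroxidase, was 2.94-fold lower (2.8 to 3.08), with 1 later library above the earlier median.

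Single regulators of the cell cycle and of the p53 response are given for their levels. Ccne1, cyclin E1, ran from 0 to 566 CPM in the earlier block (median 206) and from 0 to 267 CPM in the later (median 32.2), and was 2.39-fold lower (2.28 to 2.51). Cdkn1a, the p21 inhibitor and a p53 target, had medians of 101 and 31.4 CPM and was 2.48-fold lower (2.33 to 2.64). Trp53 itself was higher, with medians of 5.5 and 44.7 CPM and a pooled ratio of 3.9 (3.54 to 4.29), which was 2.39 without library 31. The cell cycle list had 3 of 42 genes lower and 1 higher (median 0.02), fewer than the 10.6% and 6.87% of all genes, and the p53 and DNA damage list 3 of 22 lower and 2 higher (median -0.07).

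Crabp2, a retinoic acid binding protein, was among the well-detected genes with the largest increase. It ran from 0 to 190 CPM in the earlier block (median 18.9) and from 10.4 to 368 CPM in the later (median 141). In the later block 18 of 19 libraries exceeded the earlier median, and 1 of 20 earlier libraries exceeded the later one. The pooled ratio was 4.51 (4.23 to 4.8), and 6.99 without library 4. By run the medians were 49.5 CPM for the later members of columns 73 to 80, 178 CPM in columns 81 to 88 and 146 CPM in columns 89 to 96. The direction turned within columns 73 to 80, at a log2 ratio of -1.09.

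Myo10, an unconventional myosin of filopodia, had medians of 5.89 and 105 CPM and a pooled ratio of 6.59 (6.04 to 7.2), or 13.6 without library 40. Its median was 108 CPM in columns 81 to 88 and 163 CPM in columns 89 to 96, but 0 CPM in the later members of columns 73 to 80, where the log2 ratio was -1.002. The higher level in the later block was thus carried by columns 81 to 96. These 2 genes, with Gars, Afap1l2 and Smarca4, were taken as the best of those at 100 CPM after values were seen.

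Gars, the glycyl-tRNA synthetase, ran from 0 to 146 CPM in the earlier block (median 52) and from 31.9 to 825 CPM in the later (median 123), with a ratio of 3.54 (3.35 to 3.74). Afap1l2, an actin-associated adaptor, ran from 0 to 152 CPM (median 57.8) and from 51.5 to 368 CPM (median 127), with a ratio of 2.79 (2.64 to 2.94). For both, only 1 of 20 earlier libraries exceeded the later median. In columns 73 to 80 Afap1l2 was at 14.3 and 17.3 CPM in the 2 earlier members and at 127 to 368 CPM in the 5 later ones, all above the earlier pair. Pcid2, whose GC-rich promoter is printed above, ran from 36 to 357 CPM in the earlier block (median 164) and from 55.3 to 581 CPM in the later (median 367). No earlier library exceeded the later median, the ratio was 2.13 (2.06 to 2.2), and in columns 73 to 80 the medians were 218 and 376 CPM. Pan2, a deadenylase subunit, was 1.65 times higher (1.62 to 1.69), with 18 of 19 later libraries above the earlier median, but had a log2 ratio of 0.02 within columns 73 to 80.

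**Figure D4:**
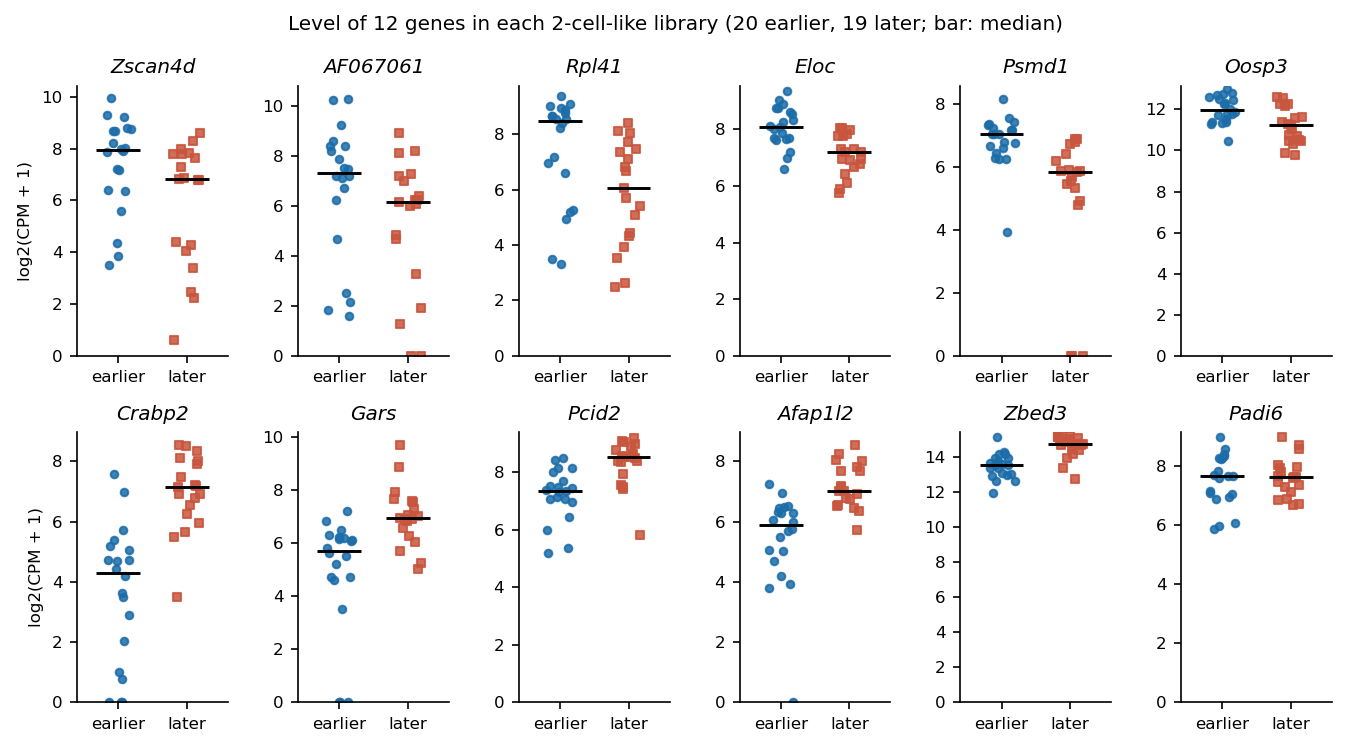
Level of 12 genes, as log2(CPM + 1) on the y axis, in each of the 20 earlier (blue circles) and 19 later (red squares) libraries, with the median as a bar. Zscan4d, AF067061, Rpl41, Eloc, Psmd1 and Oosp3 have lower medians and Crabp2, Gars, Pcid2, Afap1l2 and Zbed3 higher medians in the later block, while Padi6 has medians of 202 and 194 CPM.

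In the cytoskeleton list 4 of 29 genes were higher and 0 lower, against 6.87% higher and 10.6% lower of all genes. The list had a median log2 ratio of +0.20 that was -0.01 with medians of library CPM. Myh9, non-muscle myosin heavy chain, was at 12 and 33.6 CPM with a ratio of 2.79 (2.48 to 3.16). Ctnnb1, beta-catenin, was at 38.9 and 102 CPM with a ratio of 2.61, and had a log2 ratio of -0.20 within columns 73 to 80. Smarca4, the BRG1 remodelling ATPase stored in the egg for genome activation, had a ratio of 2.82 that was 1.86 without library 31 and a log2 ratio of -0.64 within columns 73 to 80. In its list, maternal regulators of genome activation, 3 of 33 genes were higher and 1 lower (median -0.07). Obox2, an oocyte homeobox factor, had medians of 71 and 127 CPM and a ratio of 2.28 (2.17 to 2.4), with 16 of 19 later libraries above the earlier median. Tet1, an enzyme of DNA demethylation, had a ratio of 3.81 at 4.54 and 17.3 CPM, which was 2.5 without library 8 and 5.84 without library 73. It was the only one of 19 compared genes of DNA methylation and reprogramming past 2-fold.

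Genes of the subcortical maternal complex and lattice, to which Padi6 belongs, differed in both directions. Of 17 compared 1 was at least 2-fold higher and 0 lower, with a median of -0.24, which was +0.33 among libraries not labelled mutant oocyte and +0.11 without columns 57 to 64. Zbed3, a zinc finger member of the complex, ran from 3988 to 36472 CPM in the earlier block (median 11970). In the later block it ran from 6847 to 38175 CPM (median 27520), and 17 of 19 later libraries exceeded the earlier median. The pooled ratio was 2.07 (2.06 to 2.07), or 1.97 without library 40 and 1.99 without library 74. Its 2 earlier members of columns 73 to 80 had 18121 and 36472 CPM, and the 5 later members of that run a median of 27520 CPM. In the runs before column 73 the medians were 8721, 13027 and 9273 CPM, and the highest library there had 20137 CPM, above the lower of those 2 earlier members. Within columns 73 to 80 the log2 ratio was 0.03. Oocyte-like libraries had 7507 CPM. Nlrp14, an NLR protein of the oocyte, was at 600 and 308 CPM and 1.95-fold lower, with a log2 ratio of -1.89 among libraries labelled mutant oocyte and +0.18 among the others. Khdc3, another member of the complex, was at 120 and 70.7 CPM and 1.70-fold lower, with 18 of 20 earlier libraries above the later median, and had log2 ratios of -1.33 and +0.05 in the same groups of labels.

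**Figure D5:**
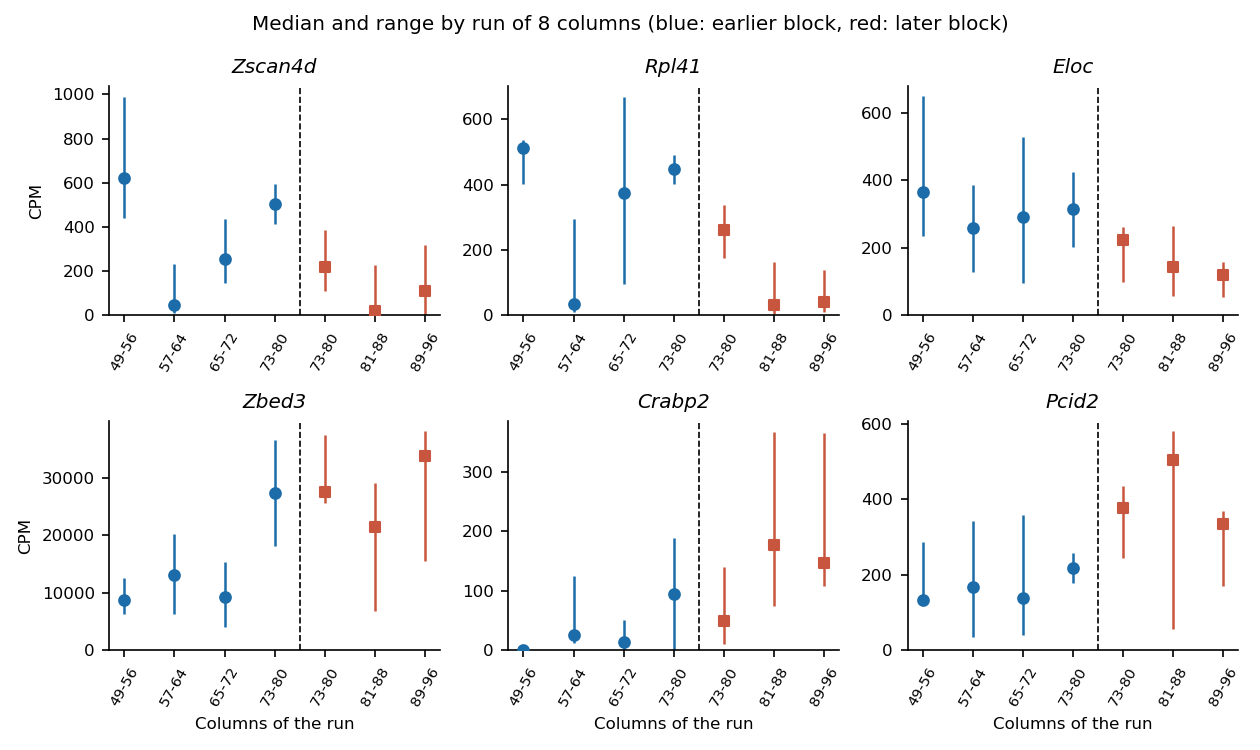
Median (points) and range (lines) of CPM on the y axis for 6 genes by run of 8 columns on the x axis, blue for earlier and red for later members, with the block boundary dashed. Medians of Zscan4d and Rpl41 are low in columns 57 to 64 and in columns 81 to 96, the Zbed3 median is higher in each run from column 73 on, with ranges that overlap the runs before it, and Crabp2 is highest in columns 81 to 96.

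Few of the messages stored in the egg passed 2-fold. Of 49 compared transcripts cleared after fertilisation 3 were lower and 0 higher (median -0.14), against 10.6% and 6.87% of all genes. Of 27 clearance factors 0 passed 2-fold (median -0.08). Oosp3, an oocyte-secreted protein, ran from 1381 to 8048 CPM in the earlier block (median 3961) and from 889 to 6105 CPM in the later (median 2376). It was 1.78-fold lower (1.77 to 1.8), with 19 of 20 earlier libraries above the later median, but had a log2 ratio of +0.43 within columns 73 to 80. Its relative Oosp2 had medians of 102 and 36.2 CPM and was 2.41-fold lower (2.26 to 2.56), but had a log2 ratio of +0.14 within columns 73 to 80. H1f8 was at 750 and 1018 CPM.

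The genes with the largest ratios, by the naming rule, were expressed at low levels and in part of the libraries. The 12 with the largest ratio were Laptm5 (84-fold, a lysosomal membrane protein), Ano6 (22.8), Panx1 (14.4, a membrane channel), Pgm2 (14.1), Haus8 (11.6, an augmin subunit), ENSMUSG00000111339 (11.4), Fam186b (11.3), Slc38a8 (10.9), Bank1 (10.9), Nod2 (10.2, a sensor of bacterial peptides), Slc9a3r2 (9.1) and Brme1 (8.99, a meiotic recombination factor). Their pooled levels in the later block were 10.6 to 56.6 CPM. The 12 with the smallest ratio were Extl1 (145-fold lower, a glycosyltransferase), Atrip (22.5, the partner of the ATR kinase), Dhrs3 (17.2, a retinal reductase), Cfap58 (14.7), Zfp934 (14), Calhm6 (13.9), Nxf2 (9.92, an RNA export factor), Sapcd2 (9.69), Zfp975 (8.45), Gtf3c5 (7.38), Nudcd2 (7.12) and Ift20 (7.1, a ciliary transport protein). All but Ift20 of these had a later median of 0 CPM.

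Laptm5 had no count in most earlier libraries and at most 4.65 CPM there, and ran to 212 CPM in the later block (median 5.71). No earlier library exceeded the later median, and 13 of 19 later libraries exceeded the earlier one. Extl1 ran to 331 CPM in the earlier block (median 14.9) and to 4.67 CPM in the later. Single libraries moved most of these ratios by more than 1.5 times. Among those higher, Laptm5 was 47.6-fold without library 31, 126 without library 39 and 177 without library 80, Bank1 3.92 without library 31 and 47.8 without library 38, and Pgm2 6.7 without library 31 and 30.6 without library 34. Nod2 was 6.23 without library 45 and 24.4 without library 83, Panx1 23 without library 40 and 24.7 without library 75, Brme1 5.38 without library 43, and ENSMUSG00000111339 6.37 without library 31. Fam186b was 20.4 without library 33, Slc38a8 19.9 without library 38 and Slc9a3r2 33.1 without library 81.

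Among those lower, Extl1 was 91.9-fold without library 74, and without library 27 it had 1 count left in the later block, 1496-fold lower (268 to 59121). Dhrs3 without library 8 had 2 later counts, 363-fold lower (100 to 3003). Atrip was 12.7 without library 74 and 38.6 without library 3, Nxf2 6.24 without library 83 and 24.7 without library 7, and Zfp975 3.89 without library 34 and 13.6 without library 48. Cfap58 was 22.5 without library 46 and 28.5 without library 28, and Calhm6 22 without library 3 and 26.2 without library 28. Sapcd2 was 15.8 without library 7, Gtf3c5 12.2 without library 27 and Nudcd2 11.2 without library 6. Within columns 73 to 80 the direction turned for Sapcd2 (a log2 ratio of 3.67) and Nxf2 (2.09), and the 2-fold difference ended for Brme1 (0.64), Pgm2 (0.81), Fam186b (0.91), Ift20 (-0.82) and Zfp975 (-0.82). Among libraries not labelled mutant oocyte it ended for Haus8 (0.26) and Brme1 (0.43).

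The remaining lists had at most 3 genes past 2-fold in either direction. Of all genes compared 10.6% were lower and 6.87% higher. Of 40 genes of RNA polymerase II and elongation 2 were lower and 1 higher (median -0.08), and of 38 of histone methylation and chromatin 1 was lower, H3f3a. Of 28 genes of heat shock and the integrated stress response 3 were lower and 3 higher (median -0.29, against -0.09 for all genes). Of 13 imprinted genes 2 were lower and 1 higher (median -0.12). Meg3, the maternally expressed non-coding RNA, was the higher one, at 6.33 and 20.5 CPM, and Cdkn1c and Plagl1 were the lower ones.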

How the data were processed

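Single-cell libraries were made by separating polyadenylated RNA on beads, template switching and PCR, per the labels' protocols. The authors deposited 1 table of raw read counts per gene symbol, with no molecular identifiers. The submitters' processing notes name Trim Galore 0.4.4, HISAT2 2.1.0, DESeq2 and GRCm39. The counter and annotation are not given in the sources used here. Entries repeating a symbol (48 of 36983) were summed to 36935 symbols.

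Levels are counts per 1000000 counts of the library (CPM). Pooled levels sum the counts of a block, so deeper libraries weigh more. The blocks hold 1 sample each, so ratios carry only an exact conditional binomial 95% interval of counting error. A block with 0 counts would be set at a floor of 3 counts over the block, which no compared gene needed. A difference was called at 2-fold. Column blocks come from the table's order and stand for no label. The members and the 24 gene lists were chosen with earlier results of these data known.

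Genes named in the text are Zfp352, Mos and Padi6, the 12 highest and 12 lowest ratios among called genes whose library medians differed 1.5-fold the same way and whose symbols are not predicted-gene names, and list members with the largest ratio. Zscan4d, Tdpoz4, Tmem92, Ubtfl1, Gdf9, H1f8, Pcid2, Pan2, Chchd2, Npm1, Rpl41, Dynll1, Eloc, Ubb, Gpx1, Myo10, Crabp2, Gars and Afap1l2 were chosen outside that rule after their values were seen. Python 3.11.15, NumPy 2.4.6, pandas 2.3.3 and SciPy 1.17.1 were used. R 4.3.3 with edgeR 4.0.16 and DESeq2 1.42.0 gave alternative scaling factors only. The calculation was tried on simulated counts, drawn independently for each library and without runs of columns. That checks the calculation and not the differences reported here. Other alternatives changed the level filter, depth, member rule, labels and runs of columns. Promoter windows are RefSeq's for GRCm38.p6 and were used for letters only.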

Additional observations from a re-analysis of the deposited data

Results flagged for a closer look

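Signal of burst genes also appeared in libraries of columns 53 to 96 that missed the minimum of 4000 genes and so were used in no comparison. Burst genes without Zfp352 took 0.967% of the counts of library 82 (column 55, 95% exact binomial interval 0.946% to 0.989%), although it had no Zfp352 count. They took 0.127% of the counts of library 1 (column 77, 0.122% to 0.131%) and 1.07% of those of library 30 (column 92, 1.05% to 1.10%). The highest share in a library labelled negative control was 0.0438%. Libraries so labelled were not blank, as libraries 47 and 48 had 11461 and 9716 genes with a count. Their share therefore gives no background level for these values. The intervals cover counting error only.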

How the results depend on the processing

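For 102 results, 17 alternatives gave 1630 values close to those reported, 60 that moved and 36 that turned direction. Of the alternatives 3, on runs of columns, were chosen after seeing the data. The limit of 500000 counts and the rule without Zfp352 kept the same 20 and 19 libraries. All 102 values of each were thus bound to be close, and they show nothing about stability. Close meant within the standard deviation between libraries of a block, which was 1.53 for the burst median, or within 1.5 times for a count. That is a wide limit for single genes. Within columns 73 to 80 Trp53 went from a log2 ratio of 1.96 to 0.26 and Gpx1 from -1.55 to -0.10, and both counted as close. Among log2 ratios, a turn was counted only where the reported median was at least 0.2 from 0 or the reported gene ratio at least 2-fold. Zfp352 within columns 73 to 80 (0.25) and Nlrp14 among libraries not labelled mutant oocyte (0.18) thus counted as close, though reported below 0. The count of genes at least 2-fold higher was 1154 with medians of library CPM, 175 at 50 CPM, 2715 at 1 CPM, 1475 among libraries labelled mutant oocyte, 933 without columns 73 to 80 and 1963 within them. The count lower was 215 at 50 CPM, 3805 at 1 CPM, 1415 among libraries not labelled mutant oocyte and 1570 within columns 73 to 80. The number of burst genes lower was 27 with Mos under 10 CPM, 9 at 50 CPM, 10 without libraries labelled negative control, 1 among libraries labelled mutant oocyte, 26 among the others, 6 within columns 73 to 80 and 29 without columns 57 to 64. Among libraries labelled mutant oocyte the direction turned for the burst list (0.35), its share of counts (later minus earlier median, 0.126 percentage points), the activated genes (0.28), ribosomal proteins (0.14), early transcription factors (0.68), heat shock (0.16), nucleolus (0.32), spliceosome (0.082), AF067061 (0.93), Eif1ad18 (1.09) and Zscan4d (0.39). It turned for the subcortical maternal complex among the others (0.33) and without columns 57 to 64 (0.11), for blood markers at 1 CPM (0.34), heat shock at 50 CPM (0.073), the nucleolus with thinning (0.023) and the cytoskeleton with medians (-0.010). Within columns 73 to 80, with 2 earlier and 5 later libraries, it turned for the activated (0.24) and cleared (0.17) genes, cumulus (-2.82) and sperm (-1.25) markers, ribosomal proteins (0.17), early transcription factors (0.10), heat shock (0.062), AF067061 (0.32), B020031M17Rik (1.43), Crabp2 (-1.09), Ctnnb1 (-0.20), Gabpa (0.022), Myo10 (-1.002), Nxf2 (2.09), Oosp2 (0.14), Rpl23 (0.026), Sapcd2 (3.67), Smarca4 (-0.64) and Zfp42 (1.33). Of named genes 2-fold apart, the difference ended with its direction kept for 23 of 55 within columns 73 to 80 (Brme1, Ccne1, Cdkn1a, Chchd2, Dynll1, Eif1ad18, Eloc, Fam186b, Gars, Gpx1, H3f3a, Ift20, Obox2, Obox3, Pcid2, Pgm2, Psmd1, Rpl41, Tdpoz4, Trp53, Zbed3, Zfp975 and Zscan4b), for 12 of 58 among libraries labelled mutant oocyte (Afap1l2, B020031M17Rik, Ccne1, Cdkn1a, Dynll1, Gabpa, Gpx1, H3f3a, Pcid2, Rpl41, Tdpoz4 and Zscan4b) and for 14 of 58 among the others (Brme1, Ctnnb1, Eif1ad18, Eloc, Gars, Haus8, Obox2, Obox3, Oosp2, Psmd1, Smarca4, Tdpoz4, Trp53 and Zfp42). The filters on level change how many genes are compared; for the others the cause was not tested. Leaving out each of 39 libraries gave 582 to 678 genes higher, 810 to 986 lower and a median of all genes of -0.11 to -0.07. The burst median was then -0.98 to -0.68, with 11 to 21 burst genes lower and a share difference of -0.241 to -0.218. No direction turned by the rule above. Some results under its limits did cross 0, such as Mos (0.06 without library 38) and the mitochondrially encoded list (0.02 without library 74). No paired analysis was possible because the label numbers are unique to a library and the blocks share none. Depth limits genes of few counts, whose ratios single libraries decide.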
